A study of Mus musculus with 4 samples.

Results

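The 10 genes examined here encode cargo of neutrophil granules or the S100 proteins of the neutrophil cytosol, and their chromatin was examined in microglia, the resident macrophages of the brain. They are S100a8, S100a9, Mpo, Elane, Prtn3, Ctsg, Ltf, Lcn2, Camp and Ngp. The genes were chosen by name, as 10 of 21755 protein-coding genes. Every ATAC-seq peak deposited for the 4 libraries that overlapped 1 of the 10 gene bodies, or the 10 kb on either side of it, was taken. The windows of Prtn3 and Elane overlap and were counted once, which left 9 separate windows of 244.0 kb in all. Deposited peaks in these windows numbered 27 and 29 in the WT libraries (replicates 1, 2) and 34 and 29 in the IRF8KO libraries. Merging the peaks that passed −log10 q of 2 in at least 1 library, called strict here, gave 29 regions of 155546 in the series.

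ATAC-seq marks DNA that the Tn5 transposase can cut, which is accessible chromatin. The libraries came from untreated C57BL/6 mice aged 3 months, whose microglia were freed without enzymes and sorted by flow cytometry. Genotype was WT for 2 libraries and IRF8KO for 2. The labels do not say how Irf8 was removed, or whether brains were pooled. They do not say that replicates came from separate animals either, so the tests below measure only the spread between these libraries, which may be technical.

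Neutrophils make their granule proteins in the bone marrow, in a fixed order. Myeloperoxidase (Mpo) and the serine proteases neutrophil elastase (Elane), proteinase 3 (Prtn3) and cathepsin G (Ctsg) are packed first, into primary granules. Lactoferrin (Ltf), lipocalin 2 (Lcn2), the cathelicidin antimicrobial peptide (Camp) and neutrophilic granule protein (Ngp) follow, in secondary granules. S100a8 and S100a9 form calprotectin, a calcium- and zinc-binding complex that signals through Tlr4 and Ager. C/EBP, RUNX and PU.1 factors act at many of these genes during granulocyte development. IRF8 binds with PU.1 at ETS-IRF composite elements and, in myeloid precursors, favours the monocytic over the granulocytic fate.

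The sequences of 6 regions are given first, on the plus strand of GRCm38, because the results below turn on them. Elane −1558 and Ltf +30030 are the regions with a strict peak in both IRF8KO libraries and none listed in WT. S100a8 and Camp are the genes of the set with a region at a coding start, and only the stretch outside the annotated untranslated exon is shown for them. Ltf +16568 holds 1 of the ETS-IRF matches, and the untranslated part of an alternative transcript was left out of it too. Prtn3 +3481 has the highest ratio of IRF8KO to WT among the regions called in all 4 libraries. It and Ltf +16568 were chosen for printing after their values were seen. Each name gives the distance in bp from the annotated gene start to the best summit. Capitals mark matches to 1 of 6 motifs searched on both strands within 100 bp of the summit: CEBP (TTGCNNAA), AP-1 (TGANTCA), PU.1 (GAGGAAGT), RUNX (TGTGGT), the ETS-IRF composite (GGAANNGAAA) and the interferon-stimulated response element (ISRE, GAAANNGAAA). PU.1 and ETS-IRF matches can overlap.
Elane −1558, chr10:79884589-79884789: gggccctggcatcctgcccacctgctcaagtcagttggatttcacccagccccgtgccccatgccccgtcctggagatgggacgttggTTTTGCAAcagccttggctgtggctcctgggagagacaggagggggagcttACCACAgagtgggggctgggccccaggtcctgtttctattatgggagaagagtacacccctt
Prtn3 +3481, chr10:79877857-79878057: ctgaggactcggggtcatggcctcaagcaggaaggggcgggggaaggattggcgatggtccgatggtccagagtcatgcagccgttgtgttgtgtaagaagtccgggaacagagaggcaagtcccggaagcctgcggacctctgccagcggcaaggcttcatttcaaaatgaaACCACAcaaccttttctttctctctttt
Ltf +30030, chr9:111049201-111049401: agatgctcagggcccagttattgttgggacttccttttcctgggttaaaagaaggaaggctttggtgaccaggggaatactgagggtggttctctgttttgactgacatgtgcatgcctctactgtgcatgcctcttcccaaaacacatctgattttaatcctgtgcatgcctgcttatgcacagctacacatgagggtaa
Ltf +16568, chr9:111035809-111035939: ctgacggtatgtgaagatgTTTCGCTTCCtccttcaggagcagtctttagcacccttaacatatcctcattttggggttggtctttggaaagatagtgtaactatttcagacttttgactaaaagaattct
S100a8 +10, chr3:90668888-90668977: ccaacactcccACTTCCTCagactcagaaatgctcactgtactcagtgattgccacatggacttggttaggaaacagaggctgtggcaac
Camp +8, chr9:109849618-109849709: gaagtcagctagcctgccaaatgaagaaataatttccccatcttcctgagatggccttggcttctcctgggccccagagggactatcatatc

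Per the file headers, tag totals were 46948938 and 48896408 (WT) against 78793572 and 66224648 (IRF8KO), so depth followed genotype. All peak scores are the authors'. Pileup, how many extended cut sites cover a summit, is given below as normalised pileup, per 1000000 tags of its library. A library whose list has no peak at a region is given as 0 there, which means below the authors' calling limit. The lowest pileup in a list was 6, 6, 8 and 7 in that order of libraries, or 0.102 to 0.128 when normalised. Over the 48262 regions with a strict peak in all 4 libraries, the median ratio of the IRF8KO to the WT mean was 0.825 (log2 −0.28), so a region near that value followed the general shift. Of 10 microglial marker genes, 9 had a strict peak within 1 kb of a start in all 4 libraries, and Sall1 had it in the WT libraries alone. Of the neutrophil surface markers, Ly6g had no region in its window, while Cxcr2 and Csf3r had a promoter peak in all 4 libraries.

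The coding starts of the 10 genes were mostly without a strict peak. By median, their windows held fewer regions than those of all protein-coding genes. None of the 10 had a strict peak within 1 kb of an annotated start in all 4 libraries, which 58.1% of protein-coding genes had. Of their 37 annotated transcript starts, 20 begin coding transcripts, and a region lay within 1 kb of 2 of these, in S100a8 and Camp. At 5 of the 10 genes a region lay near any start, but in Prtn3, Ltf and Lcn2 these are starts of non-coding or intron-retaining transcripts. A gene window of the set held a median of 2 regions (range 1 to 11), against a median of 5 over all protein-coding windows. Regions open in all 4 libraries numbered a median of 1 per window (range 0 to 3), against 2 over all genes. A window includes the gene body, so both counts depend on gene length, which was not matched. They do not show that regions were sparse per kb.

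Over the 10 genes together, no difference between genotypes was found beyond the spread between libraries. The windows held 20 and 14 strict peaks in WT, 17 and 21 in IRF8KO, so the groups overlapped. WT averaged 17 ± 4.24 and IRF8KO 19 ± 2.83 (SD, n = 2 each). The difference of 2 had a two-sided exact permutation p of 0.667, where this design cannot go below 0.333. The difference was −1 without WT replicate 2, 0 without IRF8KO replicate 2, 5 without WT replicate 1 and 4 without IRF8KO replicate 1. Among peaks of at least 0.192 in normalised pileup, 1 limit for the 4 lists, it was −2. Pileup summed over the 29 regions was 15.3 and 11.2 (normalised) in WT and 10.4 and 13.5 in IRF8KO. These sums averaged 13.2 ± 2.93 and 12.0 ± 2.19 (SD, n = 2 each), with the same exact permutation p of 0.667. The IRF8KO minus WT difference of −1.25 became 0.761 without WT replicate 1 and 0.304 without IRF8KO replicate 1, and was 1.42 after the median-ratio scaling of the libraries.

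**Figure D1:**
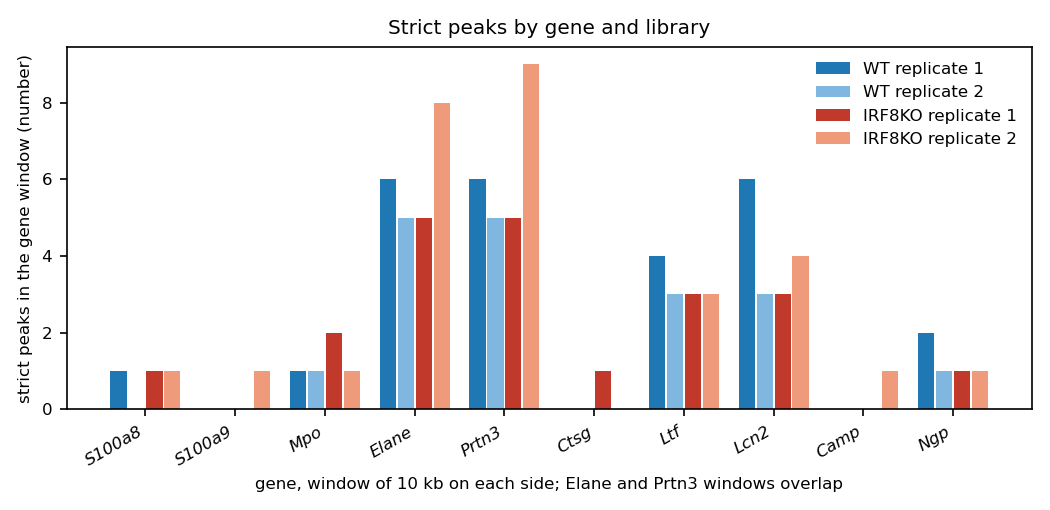
Number of strict peaks (vertical axis) in the window of each gene (horizontal axis), with 1 bar per library. The windows of Elane and Prtn3 share peaks and hold 5 to 9 in every library, whereas S100a9, Ctsg and Camp hold 1 in a single library each.

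By presence or absence, few single regions separated the genotypes. Of the 29 regions, 2 were IRF8KO-specific, meaning a strict peak in both IRF8KO libraries and no peak of any strength in either WT list; this pattern held for 3.86% of all regions. No region was WT-specific, a pattern found in 5.58% of all regions. The IRF8KO-specific regions fell in 3 of the 10 gene windows, those of Ltf and, by 1 shared region, Elane and Prtn3; 16.3% of all protein-coding windows held such a region. With either IRF8KO library left out there were 5 IRF8KO-specific regions. WT-specific regions then numbered 1 without IRF8KO replicate 1 and 2 without IRF8KO replicate 2, and 1 without either WT replicate. A strict peak occurred in all 4 libraries at 8 regions (27.6%, against 31.0% of all regions) and in 1 library at 12 (41.4%, against 43.1%).

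Both IRF8KO values lay above both WT values at 6 of the 29 regions, where 12.9% of all regions did so. They lay below both WT values at 6 regions, against 26.5% of all regions. The higher regions were Prtn3 +3481, Prtn3 −8268, Elane −4044, Elane −1558, Ltf +30030 and Camp +8. The lower regions were Elane −2364, Elane +6733, Mpo +18055, Ltf −9349, Ltf +16568 and Lcn2 +6252. With each library scaled by its median ratio, which removes the general shift, 7 regions were higher (20.6% of all) and 3 lower (23.4% of all). The 3 were Lcn2 +6252, Ltf −9349 and Ltf +16568. S100a8 +10 and Ngp −8084 joined the higher regions under this scaling, and Prtn3 −8268 left them. The higher count was 12 without IRF8KO replicate 1, and the lower count was 12 without WT replicate 2 and 11 without IRF8KO replicate 2.

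**Figure D2:**
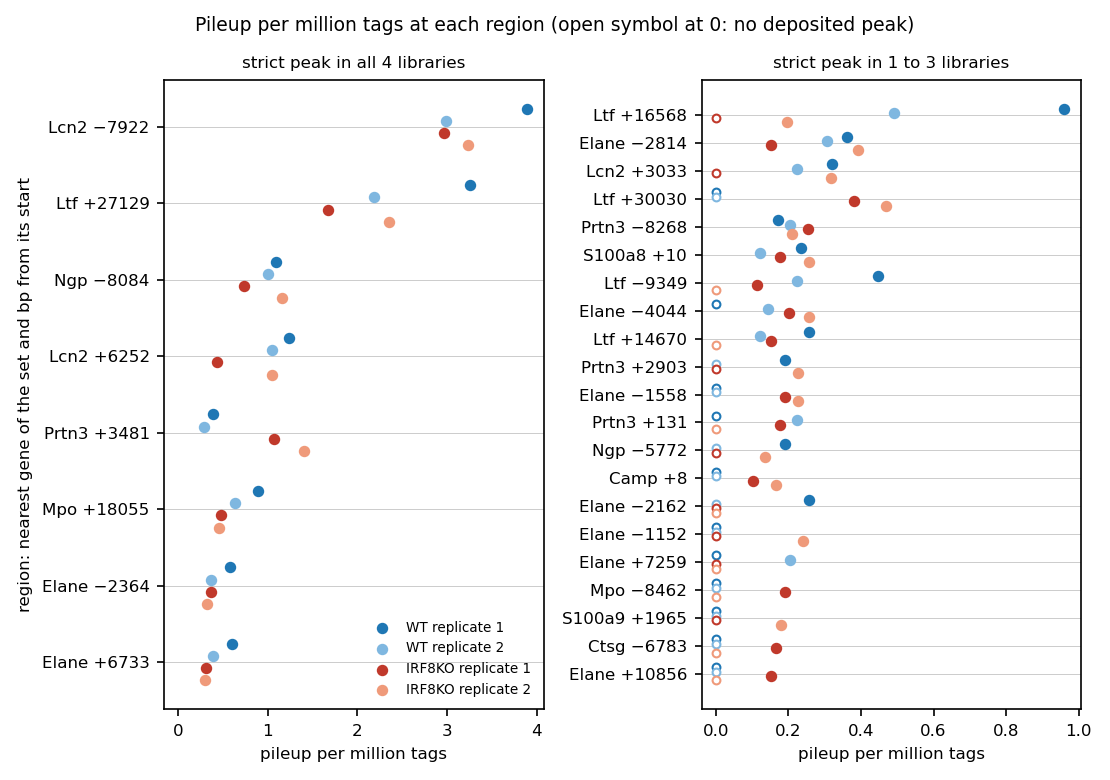
Normalised pileup, per 1000000 tags (horizontal axes), of the 29 regions (rows), with 1 symbol per library and an open symbol at 0 where the list has no peak. Among regions with a strict peak in all 4 libraries (left), Prtn3 +3481 is the 1 region where both IRF8KO libraries, at 1.07 and 1.40, exceed both WT libraries, at 0.383 and 0.286.

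Among the primary granule genes, the Prtn3 and Elane locus carried the largest number of regions and, among those called in all 4 libraries, the one with the highest IRF8KO to WT ratio. Prtn3 +3481 (chr10:79877688-79878319, 632 bp) lies in an intron of the longest annotated, non-coding transcript of Prtn3, 1657 bp upstream of the start of the coding transcript. It had the largest mean pileup in both the Prtn3 and the Elane window. Its normalised pileup was 0.383 and 0.286 in WT against 1.07 and 1.40 in the IRF8KO libraries. These values did not overlap, with means of 0.335 ± 0.0686 and 1.24 ± 0.239 (SD, n = 2 each), a ratio of 3.69, or 4.54 with each library scaled by its median ratio.

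Prtn3 +3481 was also strong within each IRF8KO list. Its −log10 q was 8.62 and 4.95 in WT and 61.8 and 79.1 in IRF8KO, and its fold enrichment over the local background was 5.68, 4.36, 12.1 and 15.5 in the same order. The called interval was also wider in IRF8KO, at 588 and 524 bp, than in WT replicate 2, at 143 bp; WT replicate 1 had intervals of 375 and 128 bp. An IRF8KO mean at least 2 times the WT mean occurred at 4.87% of the 48262 regions with a strict peak in all 4 libraries, and at 1 of the 8 such regions near the 10 genes. A ratio as large as that of Prtn3 +3481 was found at 494 of the 48262 regions (1.02%). The printed window holds a RUNX match 75 bp from the summit, and no CEBP, PU.1 or ETS-IRF match.

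**Figure D3:**
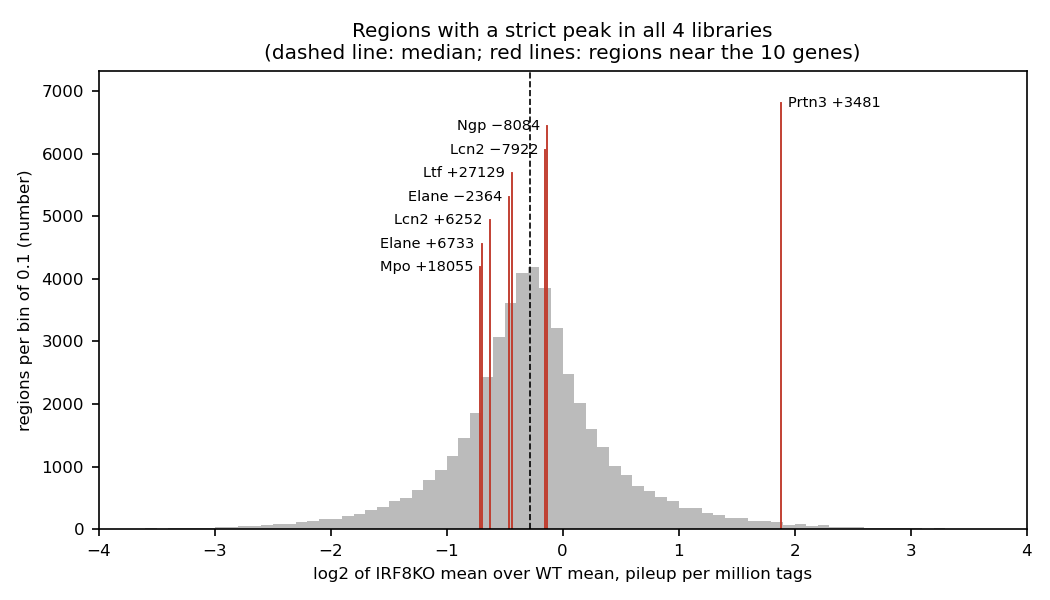
Distribution of the log2 ratio of the IRF8KO to the WT mean normalised pileup (horizontal axis) over the 48262 regions with a strict peak in all 4 libraries, as regions per bin (vertical axis). The dashed line is the median at −0.28; red lines are the 8 regions near the 10 genes, of which Prtn3 +3481 lies on the right and the other 7 have ratios of 0.612 to 0.909.

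Elane −1558 (chr10:79884598-79884773) lies between Prtn3 and Elane, upstream of the Elane start, and is 1 of the 2 IRF8KO-specific regions. Its normalised pileup was 0.190 and 0.227 in IRF8KO, a pileup of 15 in each, and neither WT list has a peak there. The −log10 q was 2.34 and 3.70, so it passed the strict limit by little. At the mean IRF8KO level the WT libraries would have shown pileups of 9.79 and 10.2, above the lowest listed pileup of 6. The printed window holds a CEBP match, TTTTGCAA, beside the summit, and a RUNX match 41 bp from it.

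The remaining regions of the locus were weak or followed the general shift. Elane −2364, between the genes, was 0.575 and 0.368 in WT and 0.368 and 0.317 in IRF8KO, a ratio of 0.726, and its WT replicate 2 and IRF8KO replicate 1 values were nearly equal. Elane +6733 was 0.596 and 0.389 in WT and 0.305 and 0.302 in IRF8KO, a ratio of 0.616, and these groups overlapped after median-ratio scaling. Elane −2814 was 0.362, 0.307, 0.152 and 0.393 in the same order, so no order of the genotypes was seen. Prtn3 −8268, in an intron of the neighbouring gene Plppr3, was 0.170 and 0.205 in WT and 0.254 and 0.211 in IRF8KO, and its groups overlapped after median-ratio scaling.

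At the starts of Prtn3 and Elane themselves little was found. Prtn3 +131, near the start of the non-coding Prtn3 transcript and also 27 bp from a Plppr3 start, had 0.225 in WT replicate 2 and 0.178 in IRF8KO replicate 1, and no peak in the others. Elane −4044, in a non-coding exon of Prtn3 and near an intron-retaining start of it, was absent in WT replicate 1 and had 0.143 in WT replicate 2, 0.203 and 0.257 in IRF8KO. No region lay within 1 kb of the Elane coding start, although WT replicate 1 had a peak beside it below the strict limit, at 0.170. The other 5 regions of the locus were strict in 1 library each, at 0.152 to 0.256 there.

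**Figure D4:**
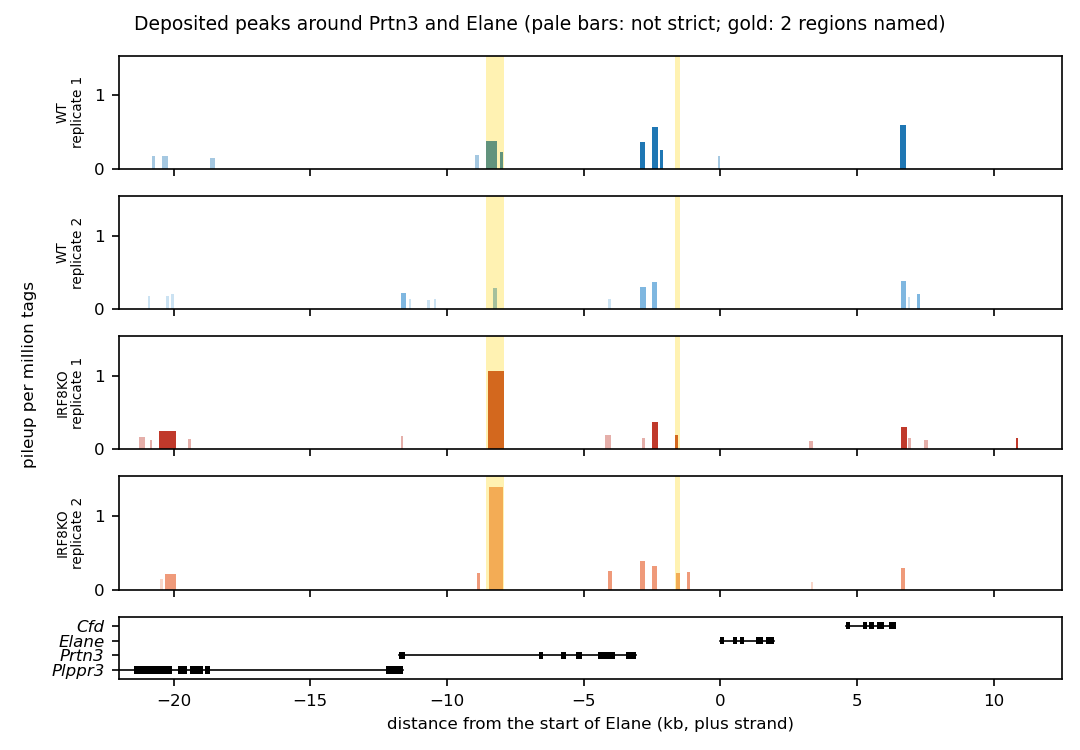
Deposited peaks around Prtn3 and Elane, plotted as normalised pileup (vertical axes, 1 panel per library) against the distance from the Elane start in kb (horizontal axis), with exons as blocks below. Gold bands mark Prtn3 +3481, which is highest in both IRF8KO panels, and Elane −1558, which has a bar in the IRF8KO panels alone.

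Mpo, whose product makes hypochlorous acid, had no strict peak near its start in any library, and WT replicate 2 had a peak across it below the strict limit, at 0.164. IRF8KO replicate 1 also had one beside the start, at 0.102. Mpo −8462, within an untranslated exon of the upstream gene Tspoap1, was strict in IRF8KO replicate 1 alone, at 0.190. Mpo +18055 (chr11:87811509-87811847) lies past the gene, in an intron of Lpo, which encodes lactoperoxidase. It was 0.895 and 0.634 in WT and 0.482 and 0.453 in IRF8KO, a ratio of 0.612. The groups did not overlap, but they did after median-ratio scaling, where the ratio was 0.780. Ctsg had 1 region, Ctsg −6783 between genes, with a peak in IRF8KO replicate 1 alone at 0.165.

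Of the secondary granule genes, Ltf had regions higher and regions lower in IRF8KO. Ltf +30030 (chr9:111049182-111049355) is the other IRF8KO-specific region; it lies beyond the 3′ end of Ltf, between genes, 7945 bp from the start of Ccrl2, and so cannot be assigned to Ltf from position alone. Its normalised pileup was 0.381 and 0.468 in IRF8KO, a pileup of 30 and 31, with −log10 q of 7.54 and 8.98, and neither WT list has a peak there. At the mean IRF8KO level the WT libraries would have shown pileups of 19.9 and 20.8, against the lowest listed pileup of 6. Its printed window holds none of the 6 motifs.

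The reverse held at 2 other Ltf regions. Ltf +16568, at an exon-intron boundary late in the gene, was 0.958 and 0.491 in WT, absent in IRF8KO replicate 1 and 0.196 in IRF8KO replicate 2; the −log10 q was 43.6, 16.3 and 3.99 where it was called. Ltf −9349, upstream of the gene, was 0.447 and 0.225 in WT, 0.114 in IRF8KO replicate 1 and absent in replicate 2. In both, each IRF8KO library was below each WT library, also after median-ratio scaling, but a peak in 1 IRF8KO list kept them out of the WT-specific class. At the mean WT level the IRF8KO libraries would have shown pileups of 57.1 and 48.0 at Ltf +16568, and 26.5 and 22.3 at Ltf −9349, where those listed were at most 13 and 9. These are the 2 of the 29 regions with an ETS-IRF match, TTTCGCTTCC in Ltf +16568 and both GGAAGAGAAA and GGAAGTGAAA in Ltf −9349. The latter overlaps a PU.1 match.

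The strongest Ltf region did not separate the genotypes. Ltf +27129, downstream of the gene, was 3.26 and 2.19 in WT and 1.68 and 2.36 in IRF8KO, so the groups overlapped, with a ratio of 0.740 near the general shift. Ltf +14670, in an intron, was 0.256, 0.123 and 0.152 in WT replicates 1 and 2 and IRF8KO replicate 1, and absent in IRF8KO replicate 2. No region lay within 1 kb of the Ltf coding starts at the 5′ end of the gene.

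**Figure D5:**
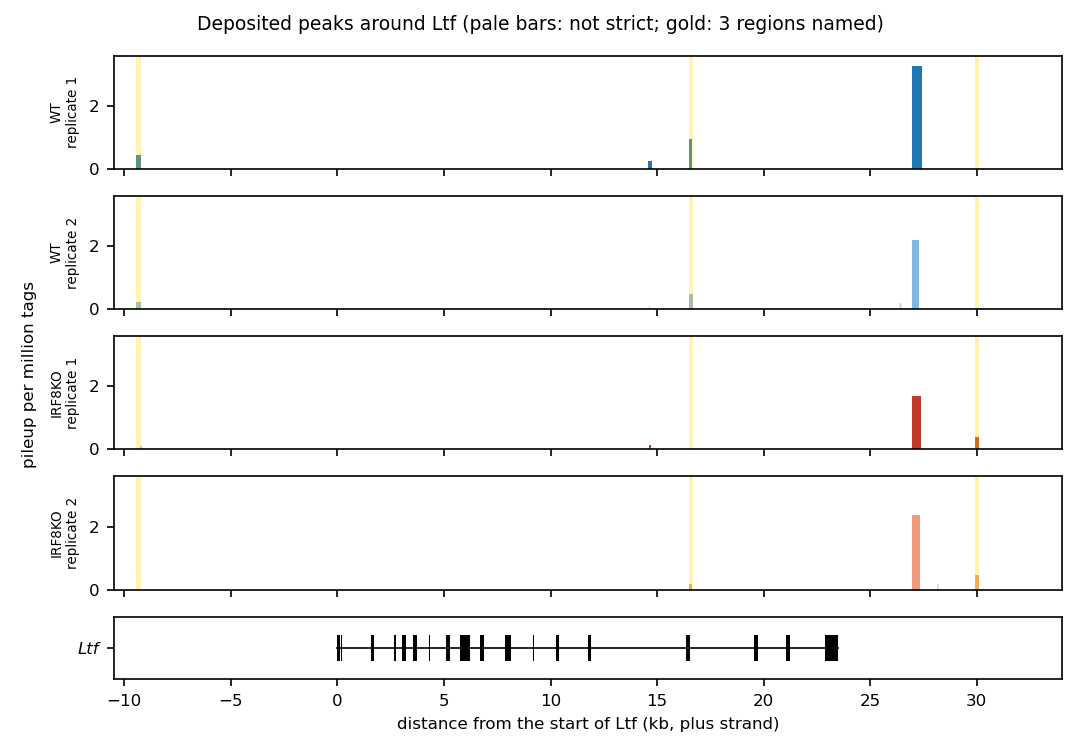
Deposited peaks around Ltf, plotted as normalised pileup (vertical axes, 1 panel per library) against the distance from the Ltf start in kb (horizontal axis), with exons as blocks below. Gold bands mark Ltf −9349 and Ltf +16568, which are highest in the WT panels, and Ltf +30030, which has a bar in the IRF8KO panels alone; the unmarked tall bar is Ltf +27129.

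Lcn2, a siderophore-binding protein, lies among other genes, and the 2 strongest regions of its window were at their starts. Lcn2 −7922, in the first exon of Ptges2, was 3.90 and 2.99 in WT and 2.97 and 3.23 in IRF8KO, a ratio of 0.901 with overlapping groups. Lcn2 +6252, 62 bp from the start of 1110008P14Rik, was 1.24 and 1.04 in WT and 0.432 and 1.04 in IRF8KO, and its lowest WT and highest IRF8KO values were nearly equal. Within Lcn2 itself, Lcn2 +3033, near the start of an internal non-coding transcript, was 0.319 and 0.225 in WT, absent in IRF8KO replicate 1 and 0.317 in replicate 2. No strict peak was found at the Lcn2 coding starts, although IRF8KO replicate 2 had 2 peaks within 1 kb of them below the strict limit, at 0.121 and 0.106.

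Camp had a single region, at its start. Camp +8 (chr9:109849575-109849721) was strict in IRF8KO replicate 2, at 0.166 with −log10 q of 2.60, and below the strict limit in IRF8KO replicate 1, at 0.102 and 0.406. Neither WT list has a peak there, but the mean IRF8KO level would have given WT pileups of 6.28 and 6.54, close to the lowest listed value of 6, so a difference was not detectable at this depth. Ngp had none at its start. Ngp −8084, between genes, was 1.09 and 1.002 in WT and 0.736 and 1.16 in IRF8KO, a ratio of 0.909 with overlapping groups. Ngp −5772 was strict in WT replicate 1 alone, at 0.192, and listed below the strict limit in IRF8KO replicate 2, at 0.136.

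The S100 genes had 1 weak region each. S100a8 +10 (chr3:90668893-90669320) was strict in 3 libraries, at 0.234 and 0.123 in WT and 0.178 and 0.257 in IRF8KO, where 0.123 was below the strict limit. The groups overlapped, though not after median-ratio scaling, and the values were near the lowest strict values of the 4 lists, 0.152 to 0.192. The peak of IRF8KO replicate 2 alone spanned the start at 90668978, and the other 3 began downstream of it. The printed window upstream of the start holds a PU.1 match, ACTTCCTC. S100a9 +1965, in an intron, was called in IRF8KO replicate 2 alone, at 0.181. Elsewhere in the S100a9 window, WT replicate 2 and IRF8KO replicate 2 each had 1 peak below the strict limit, at 0.143 and 0.136.

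Motif matches in the 29 regions were few. RUNX was found in 8 regions (27.6%, against 16.9% of all regions), PU.1 in 4 (13.8%, against 7.73%), CEBP in 2 (6.90%, against 9.54%), ETS-IRF in 2 (6.90%, against 4.30%), AP-1 in 1 (3.45%, against 8.11%) and ISRE in none (against 3.13%). The CEBP matches were in Elane −1558 and, outside the printed stretch, in Ltf +16568. A match describes letters in a window and not binding.

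Other neutrophil genes were read in the same way, with 10 kb windows. Of 11 further granule or secreted genes, 5 had a promoter peak in all 4 libraries (58.1% of all protein-coding genes did), and 4 had none in any: Pglyrp1, Fcnb, Retnlg and Wfdc21. Their 48 regions included 3 IRF8KO-specific (3.86% of all regions were), near Mmp8 and Olfm4, and 3 WT-specific (5.58% of all), all in the Pglyrp1 window. Mmp8, neutrophil collagenase, had summed normalised pileups of 0.831 and 0.552 in WT and 2.37 and 6.02 in IRF8KO, which did not overlap. Pglyrp1, a peptidoglycan recognition protein, went the other way, at 3.39 and 2.97 in WT against 0.888 and 1.77, without overlap. The whole list overlapped, at 25.5 and 21.8 in WT against 18.2 and 29.3. The 2 IRF8KO-specific regions of the Mmp8 window lie between genes upstream of the start and in an intron of the neighbouring Mmp27.

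Of 6 neutrophil receptor genes, the formyl peptide receptor genes Fpr1 and Fpr2 had most of the IRF8KO-specific regions. The Fpr1 window summed to 0.149 and 0 in WT and 2.14 and 4.53 in IRF8KO, and the Fpr2 promoter had a strict peak in both IRF8KO libraries and in neither WT library. The receptor windows held 36 regions, 4 of them IRF8KO-specific (3 near Fpr1 and Fpr2, 1 near Ltb4r1) and 1 WT-specific, near Ltb4r1, against 3.86% and 5.58% of all regions. Of 7 regulators of granulocyte development, Cebpa, Cebpd, Cebpe, Gfi1, Spi1 and Myb had a promoter peak in all 4 libraries, as 58.1% of all protein-coding genes had. Their 54 regions, with those of Csf3, included 1 IRF8KO-specific, near Myb, and no WT-specific one, beside the same 3.86% and 5.58%.

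The receptors of calprotectin and the S100 neighbours held 45 regions near 10 genes, 4 IRF8KO-specific and 5 WT-specific, where 3.86% and 5.58% of all regions were so. All 4 IRF8KO-specific ones lay at Tlr4, the strongest in an intron 1298 bp from the start, at 0.990 and 1.86 against none in WT. The WT-specific ones lay at Tlr4, among S100a3, S100a4, S100a5 and S100a6, and near S100a10. The S100a6 window summed to 3.62 and 2.60 in WT and 0.685 and 0.966 in IRF8KO, without overlap. S100a3 had a promoter peak in the IRF8KO libraries alone, but its window summed to 3.75 and 2.41 in WT against 0.876 and 1.09, with 2 WT-specific regions.

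Marker lists of microglia and of other cell types the sort could hold were summed in the same way, and their part in the results above was not tested. Summed normalised pileup of the 3 neutrophil surface genes was 14.3 and 10.8 in WT and 7.50 and 12.3 in IRF8KO. Most of it came from Csf3r, at 12.9 and 9.67 in WT against 5.83 and 9.68, which overlapped. Cxcr2 was 1.43 and 1.17 in WT against 1.68 and 2.63, without overlap. That of 7 monocyte and border macrophage genes was 24.0, 19.1, 15.6 and 27.4, with Ccr2, Ly6c2, Plac8 and Lyve1 lacking a promoter peak in all libraries. In that list Mrc1 and Pf4, markers of border macrophages, had a promoter peak in all 4 libraries and 2 and 1 IRF8KO-specific regions, a class of 3.86% of all regions. Pf4 summed to 0.447 and 0.327 in WT against 1.46 and 2.36 in the IRF8KO libraries, which did not overlap. Mrc1 summed to 7.75 and 5.28 in WT against 7.46 and 13.1, which overlapped, with 8 of its 16 regions higher in IRF8KO and 1 lower, where 12.9% and 26.5% of all regions were so. Ccr2 went the other way, at 4.77 and 3.66 in WT against 1.38 and 2.20, with 3 regions lower and 1 WT-specific, and Lyve1, Plac8 and F13a1 had no region higher in IRF8KO. The 10 microglial genes summed to 201, 154, 105 and 149. The lymphocyte genes Cd79a, Cd3e and Cd4 and the astrocyte gene Aqp4 also lacked a promoter peak in all 4 libraries. The sums ran from 10.8 to 20.1 for 4 astrocyte genes, and the lowest was in IRF8KO replicate 1. Of these, Slc1a2 was 8.99 and 7.18 in WT against 1.22 and 2.20 in IRF8KO, without overlap. Of its 18 regions 12 were lower and 4 WT-specific, against 26.5% and 5.58% of all regions. Gfap was 2.09 and 1.35 against 1.19 and 0.966, also without overlap. Aldh1l1 overlapped, at 9.01 and 7.36 against 8.07 and 12.8, and Aqp4 had regions in IRF8KO replicate 1 alone, summing to 0.330. The 3 neuronal genes summed to 5.15 and 6.67 in WT against 3.49 and 4.20, and the 2 endothelial genes to 14.2 and 10.4 against 6.92 and 8.77. Both lists were lower in each IRF8KO library than in each WT library. The microglial list had the same order, so it was not particular to these lists. None of these sums was corrected for the general shift. IRF8KO replicate 1 also had the lowest median over the 48262 shared regions, 0.558 against 0.777 to 0.958.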

How the data were processed

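Chromatin accessibility was measured in 4 libraries, 2 WT and 2 IRF8KO, grouped by the genotype label. Per the submitters' processing notes, Bowtie2, MACS2 2.1.1.20160309, bcl2fastq and deepTools were used with mm10; for the aligner, settings were not given in the sources used here. The authors called peaks per library, per the file headers, at a p cutoff of 0.01, with cut sites moved by −37 bp and extended to 73 bp. The deposited pileup is an unscaled signal, how many extended cut sites cover a summit. The deposited fold enrichment is a ratio to the local background. The deposited p and q are −log10 values; per the headers no q was computed, yet the column is filled, and it was used. A fixed q limit moves with depth, which was higher in IRF8KO, and tag size was 50 bp in WT and 49 bp in IRF8KO.

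Summits of 1 interval were reduced to the best one. Strict peaks (−log10 q of 2 or more) on 20 chromosomes were merged where they shared at least 1 bp, and a region took the highest deposited pileup overlapping it. Normalised pileup, per 1000000 tags, assumes that pileup scales with tag number. Gene bodies and starts came from GENCODE M21, on GRCm38, with 10 kb on each side and 1 kb for promoters. A two-sided exact permutation test compared totals of the libraries; counts of regions are given beside the share over all regions, with no test. Precision is limited by 2 libraries per genotype. The 10 genes, the gene and marker lists and the rules were chosen with earlier results of these data known. Regions were described in full where they were genotype-specific, within 1 kb of a start, or of the largest mean pileup in a window; listed genes were named where they held a genotype-specific region or promoter, and the others were chosen after their values were seen. The sums of 2 marker lists are not reported here. The scripts (Python 3.11.15, pandas 2.3.3, pysam 0.24.0) were tested on simulated data. Alternatives covered the q limit, window, overlap, scaling, score, rule of absence and each library left out.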

Additional observations from a re-analysis of the deposited data

How the results depend on the processing

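The IRF8KO-specific count of 2 was 1 at −log10 q of 5, 0 over gene bodies, and 2 to 5 with a library left out. The WT-specific count of 0 was 1 with 25 kb windows, 1 when absence meant no strict peak, and 1 to 2 with a library left out. The count of higher regions, 6, was 3 at −log10 q of 5, 3 over gene bodies, 11 with 25 kb windows, 2 without the Prtn3 and Elane windows, and 6 to 12 with a library left out. The count of lower regions, 6, was 1 over gene bodies, 18 with 25 kb windows, 3 after median-ratio scaling, and 7 to 12 with a library left out. The difference in strict peaks, 2, was 0.5 at −log10 q of 5, 0.5 over gene bodies and 3.5 with 25 kb windows or all deposited peaks, turned to −2 among peaks of at least 0.192 in normalised pileup, and ran from −1 to 5 with a library left out. The difference in summed pileup, −1.25, turned to 0.462 over gene bodies and 1.42 after median-ratio scaling, was −5.69 with 25 kb windows and −2.14 without the Prtn3 and Elane windows, and ran from −3.41 to 0.761 with a library left out. Equal pileup and the removal of the Prtn3 and Elane windows were chosen after seeing the data.

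Replicate numbers are shared between genotypes, but the differences between replicates 1 and 2 did not go together (r = 0.00771 across 48262 regions, which are not independent). With the numbers as a replicate block, the differences stayed 2 and −1.246, p = 1 for each by an exact sign-flip permutation test that cannot go below 0.5. Regions near the lowest deposited pileup, such as Camp +8, cannot be told from absent ones at this depth.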
